A study of Mus musculus with 16 samples.

Results

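The genes described here carry tryptophan through kynurenine to NAD. They are 10 of the 54838 genes of the deposited count table and were chosen by name from the known pathway: Tdo2, Afmid, Kmo, Kynu, Haao, Acmsd, Qprt, Nadsyn1, Nampt and Nmnat1. All 10 were found in the table and all 10 passed the filter on low counts. RNA-seq libraries were made from the livers of 8 mice, all carrying HrasG12V, a mutant, always active Ras protein that causes tumors in the liver. Of these mice, 4 received a traditional Chinese medicine (TCM) decoction and 4 were controls, and each mouse gave 1 library of tumor tissue and 1 of the liver around it (peri-tumor), so that TCM tumor, TCM peri-tumor, control tumor and control peri-tumor tissue have 4 libraries each. The labels add 3 months to every group without saying whether this is age or length of treatment. The study's stated interest was how the decoction acts on liver tumors. Gene positions are those of the GENCODE annotation on GRCm38. The sources used here do not state what the decoction holds, its dose or the promoter of the transgene, and the treatment notes name Ras-transgenic mice and the carcinogen DEN together, so it is unknown here whether these mice also received DEN.

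The liver is the main site where tryptophan is broken down. Tryptophan dioxygenase (Tdo2) opens the ring of tryptophan, kynurenine formamidase (Afmid) removes the formyl group, kynurenine monooxygenase (Kmo) and kynureninase (Kynu) turn kynurenine into 3-hydroxyanthranilate, and 3-hydroxyanthranilate dioxygenase (Haao) converts that into an unstable semialdehyde. The semialdehyde either closes by itself to quinolinate, which Qprt joins to a ribose phosphate on the way to NAD, or is drawn off by the decarboxylase Acmsd, so that Acmsd and Qprt stand on opposite arms of a fork. Nmnat1, the nuclear adenylyltransferase, and the NAD synthetase Nadsyn1 complete NAD, and Nampt makes NAD again from nicotinamide by the salvage route, which does not start from tryptophan.

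Total counts ran from 13947483 to 16194224 per library, and the members were read at 110 to 30163 counts per library. Control mouse 4 had the highest or the lowest CPM of the 4 control mice in both tissues for Tdo2, Afmid, Kmo, Kynu, Acmsd, Nadsyn1 and Nampt. Results of the members that turn on that mouse are therefore given with and without it, and those of the gene lists and markers only in part. The sum of 7 hepatocyte markers was high in every library. It spanned 135700 to 217400 CPM in TCM tumors, 103600 to 158100 CPM in TCM peri-tumor tissue, 135700 to 184100 CPM in control tumors and 86150 to 125400 CPM in control peri-tumor tissue. Most of it was Alb, Trf and Apoa1, whose means were higher in tumors of both treatments. The means of Ttr, Apoh, Serpinc1 and Cyp2e1 were lower there. Cyp2e1 averaged 606 CPM in TCM tumors and 3644 CPM in TCM peri-tumor tissue, and 197 CPM in control tumors and 4111 CPM in control peri-tumor tissue. CPM are counts scaled to the library total with TMM factors. The 5 Kupffer cell markers summed to 36.3 to 173 CPM in TCM tumors, 228 to 284.5 CPM in TCM peri-tumor tissue, 119 to 182 CPM in control tumors and 416 to 960 CPM in control peri-tumor tissue. The sums of 6 macrophage markers were 96.4 to 266 CPM in TCM tumors, 168 to 250 CPM in TCM peri-tumor tissue, 257 to 418 CPM in control tumors and 311 to 666 CPM in control peri-tumor tissue, and the defining markers of both cell types were above 0 in every group. Of 5 bile duct markers, Krt19, Krt7 and Epcam averaged at most 1.20 CPM in any group, while Sox9 averaged 20.8 CPM in TCM tumors, 10.1 CPM in TCM peri-tumor tissue, 20.7 CPM in control tumors and 9.64 CPM in control peri-tumor tissue. Spp1 averaged 856 CPM in TCM tumors, 30.6 CPM in TCM peri-tumor tissue, 1778 CPM in control tumors and 37.1 CPM in control peri-tumor tissue. In whole tissue, fewer cells of a type and less RNA per cell cannot be told apart.

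Per gene length, Tdo2 was the most abundant of the 10 genes in every group and Nmnat1 the least. In the deposited FPKM values (counts divided by gene length and library total), Tdo2 averaged 248 ± 47.8 in TCM tumors, 310 ± 75.8 in TCM peri-tumor tissue, 146 ± 45.6 in control tumors and 177 ± 55.6 in control peri-tumor tissue (SD, n = 4 each). Nmnat1 averaged 1.77 ± 0.135 FPKM in TCM tumors, 2.25 ± 0.374 in TCM peri-tumor tissue, 1.78 ± 0.253 in control tumors and 2.33 ± 0.339 in control peri-tumor tissue. Behind Tdo2, Haao and Qprt lay within each other's range in both peri-tumor groups, at 61.0 ± 9.33 and 60.1 ± 8.24 FPKM in TCM and 69.3 ± 12.5 and 58.2 ± 10.4 FPKM in control peri-tumor tissue. In tumors their order opened up. Qprt stood above Haao with no overlap, at 58.5 ± 4.69 against 35.5 ± 6.82 FPKM in TCM tumors, and at 46.4 ± 3.49 against 17.4 ± 2.08 FPKM in control tumors, where Haao lay within the range of Kmo (21.0 ± 2.76 FPKM). Nampt took the seventh place in both TCM groups and the fifth in both control groups, in each case within the range of the next gene.

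**Figure D1:**
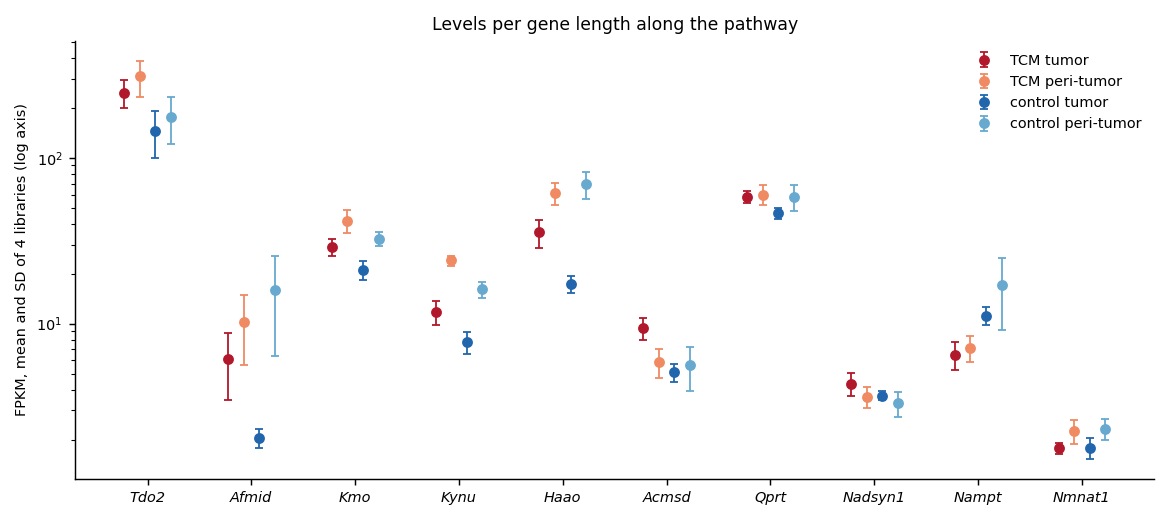
Mean FPKM (log axis) of each gene in pathway order, with bars of 1 SD over 4 libraries, for TCM tumor, TCM peri-tumor, control tumor and control peri-tumor tissue. Tdo2 lies above all other genes, with group means of 146 to 310 FPKM, and the tumor means of Haao, 35.5 and 17.4 FPKM, lie below its peri-tumor means of 61.0 and 69.3 FPKM.

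Tumors held less RNA of the middle steps of the pathway than the liver around them. In TCM mice Kmo, Kynu, Haao and Nmnat1 fell in tumors, none of the 10 rose, and 6 were not called (edgeR quasi-likelihood test, Benjamini-Hochberg adjusted p under 0.05). Over all 14865 genes tested, 32.9% were called in this comparison, 17.3% higher and 15.6% lower in tumors, and the median log2 fold change was -0.47 for the 10 genes and 0.0043 for all. In control mice Afmid, Kmo, Kynu, Haao, Qprt and Nmnat1 fell in tumors, none of the 10 rose, and 4 were not called, where 43.2% of all genes were called, 22% higher and 21.2% lower. Here the median log2 fold change was -0.60 for the 10 genes and 0.001 for all. Tdo2, Acmsd, Nadsyn1 and Nampt were called in neither treatment. Other marker genes moved as well. Of 5 Kupffer cell markers 3 were lower in tumors of TCM mice and 5 in those of control mice, of 6 macrophage markers 0 and 4, and of 7 hepatocyte markers 2 were higher and 2 lower in TCM mice and 3 higher and 2 lower in control mice. Some markers of other cell types were higher in tumors: 3 of 5 of stellate cells and fibroblasts, 2 of 4 tested of dendritic cells and 2 of 4 tested of bile ducts, in TCM and in control mice alike. Of these lists, 2 stellate cell and fibroblast markers were lower in TCM mice and 1 in control mice, and 1 bile duct marker was lower in control mice. Of 5 endothelial markers 2 were higher and 1 lower in TCM mice, and 1 was higher and 2 lower in control mice. Of 3 neutrophil markers tested 1 was higher in control mice and none was called in TCM mice, and no T or B cell marker was called. Summed, the 5 stellate cell and fibroblast markers spanned 144 to 210.3 CPM in TCM tumors, 126 to 149.9 CPM in TCM peri-tumor tissue, 145 to 380 CPM in control tumors and 84.1 to 132 CPM in control peri-tumor tissue. The part of these cells in the results was not tested.

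Against control mice, the decoction went with higher levels of several genes of the route. In tumor tissue Kynu, Haao and Acmsd rose, none fell and 7 were not called, with 7.28% of all genes called (4.55% higher, 2.72% lower) and a median log2 fold change of 0.59 for the 10 genes and 0.002 for all. In peri-tumor tissue Tdo2 and Kynu rose, Nampt fell and 7 were not called, with 14.1% of all genes called (6.71% higher, 7.35% lower) and medians of 0.14 and -0.0042. In peri-tumor tissue 4 of 5 Kupffer cell markers and 5 of 6 macrophage markers were lower in TCM mice too, and their part in the result was not tested. The 4 TCM and 4 control tumors did not overlap in CPM for 9 of the 10 genes, Nmnat1 being the exception, with 8 of them higher and Nampt lower in TCM tumors. Over all genes, 15.9% had tumor groups that did not overlap (8.83% higher, 7.04% lower). The 9 include Afmid, whose tumor groups overlap once counts shared with a neighbouring gene are added, which leaves 8 genes, 7 of them higher. When the tumor difference itself was compared between treatments, Haao was the 1 gene of the 10 called, where 1.11% of all genes were called (0.706% higher, 0.404% lower). The number of tumor calls moved with the tool and with control mouse 4: DESeq2 called 7 of the 10, all higher, where it called 12.1% of all genes (7.34% higher, 4.8% lower). With sample weights, limma-voom called 7 (6 higher, 1 lower), where it called 14.8% of all (8.4% higher, 6.35% lower). Without both libraries of control mouse 4, edgeR called 7 (6 higher, 1 lower), where it called 12.5% of all (8.54% higher, 3.95% lower). The calls of Kynu, Haao and Acmsd were made in all 3 of these.

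**Figure D2:**
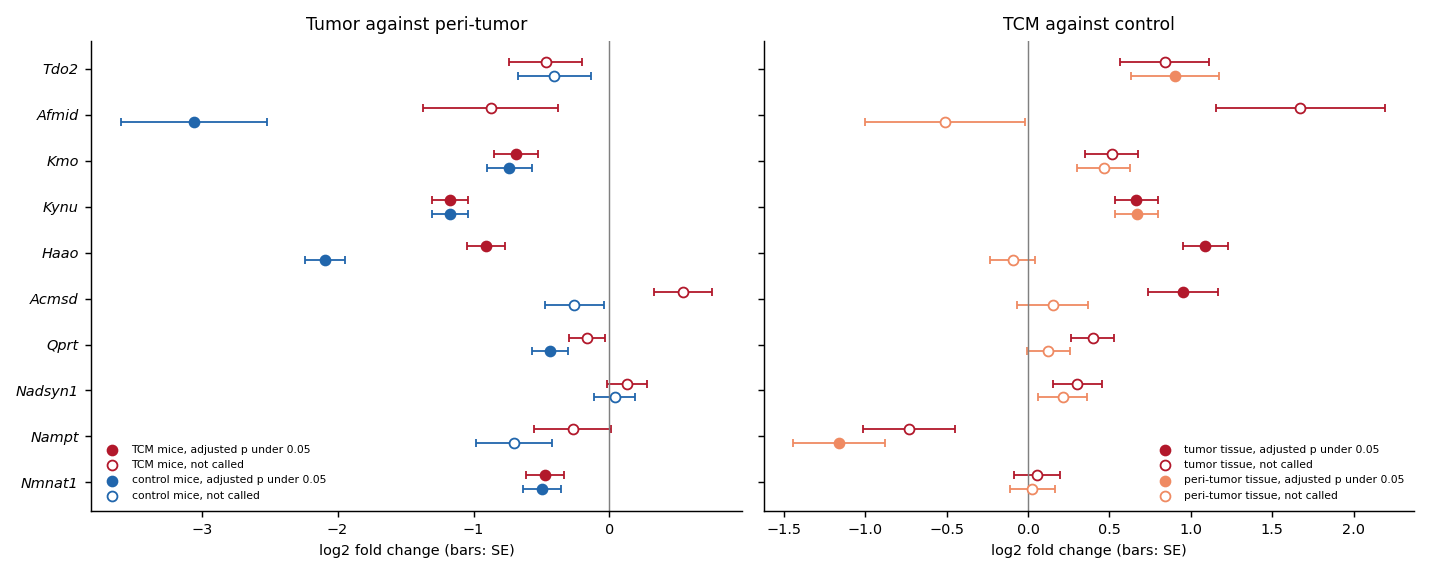
Log2 fold change with its SE for each gene, on the left for tumor against peri-tumor tissue in TCM and control mice and on the right for TCM against control mice in tumor and peri-tumor tissue. Filled points were called at an adjusted p under 0.05, and of the 4 genes called in both treatments on the left Haao shows the widest gap, at -0.91 in TCM mice and -2.09 in control mice.

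Tdo2 (chr3:81957090-81976202, minus strand), the entry of the pathway and a classic glucocorticoid-induced liver gene, was higher in TCM than in control peri-tumor tissue, and in tumors its groups did not overlap but the test did not call it. It had 1106, 1516, 1284 and 949 CPM in the tumors of TCM mice 1 to 4, against 708, 486, 592 and 930 CPM in control tumors. In peri-tumor tissue it had 1123, 1826, 2279 and 1500 CPM in TCM mice, against 684, 620, 998 and 1299 CPM in control mice. Control mouse 4 had the highest Tdo2 level of the controls in both tissues, and in peri-tumor tissue it lay above TCM mouse 1, so those groups overlap. The rise in peri-tumor tissue was 0.90 ± 0.27 on the log2 scale (adjusted p = 0.0386), and the difference in tumors, 0.84 ± 0.27, was not called (adjusted p = 0.0709). The peri-tumor call was lost when control peri-tumor 1, 2 or 3 or TCM peri-tumor 2, 3 or 4 was left out, with adjusted p of 0.108, 0.115, 0.0672, 0.0778, 0.12 and 0.0527, and also with no filter (adjusted p = 0.0533) and in a fit of the 8 peri-tumor libraries alone (0.0683). Over all settings tried the adjusted p ran from 0.00583 to 0.12. The tumor difference was called without control tumor 4 (1.04, adjusted p = 0.0354), without both libraries of control mouse 4 (1.06 ± 0.25, adjusted p = 0.0137), under DESeq2 and under limma-voom (range over settings 0.0137 to 0.178). Between tumor and peri-tumor tissue Tdo2 was not called in either treatment, at -0.47 ± 0.27 in TCM mice and -0.41 ± 0.27 in control mice.

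Afmid, the formamidase, cannot be read from its own counts. Of the 50-base words in its longest transcript (gene at chr11:117825924-117839908, plus strand), 64.0% also occur in Gm20708, a read-through gene on the same strand, or in Tk1, which overlaps it on the opposite strand. No other member shared more than 5.64%. Gm20708 held 51.1% to 59.9% of the summed counts of the pair in 8 libraries and 0.659% to 2.93% in the other 8, with no library between. All 4 control tumors, TCM tumor 1, TCM peri-tumor 2 and 4 and control peri-tumor 4 were in the high class, so the share was not fixed by mouse or by group. Afmid and Gm20708 together had 37.8, 42.2, 48.5 and 21.0 CPM in TCM tumors and 80.1, 75.85, 88.0 and 79.5 CPM in TCM peri-tumor tissue. The sum was 26.4, 18.4, 22.3 and 24.4 CPM in control tumors and 96.35, 129, 95.2 and 33.55 CPM in control peri-tumor tissue. On this sum, chosen after the data had been seen, tumors lay below peri-tumor tissue in every mouse of both treatments. The log2 fold change was -1.11 ± 0.31 in TCM mice (adjusted p = 0.0105) and -1.95 ± 0.31 in control mice (adjusted p = 1.28e-04). On Afmid counts alone the values were -0.87 ± 0.50 (adjusted p = 0.196) and -3.06 ± 0.54 (adjusted p = 2.88e-04), so the split of the counts moved the control value by more than 1.5 times and decided the call in TCM mice. Between TCM and control tumors the sum differed by 0.71 on the log2 scale, against 1.67 ± 0.52 for Afmid alone, and neither was called (adjusted p = 0.168 and 0.062). The value of Afmid alone was called without control mouse 4 (1.76 ± 0.42, adjusted p = 0.0149), under DESeq2 and in a fit of the tumor libraries alone. For Afmid alone, the tumor effect of TCM mice minus that of control mice was called without control peri-tumor 4 (2.53, adjusted p = 0.0167), without control mouse 4 and under DESeq2, and not with all libraries.

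**Figure D3:**
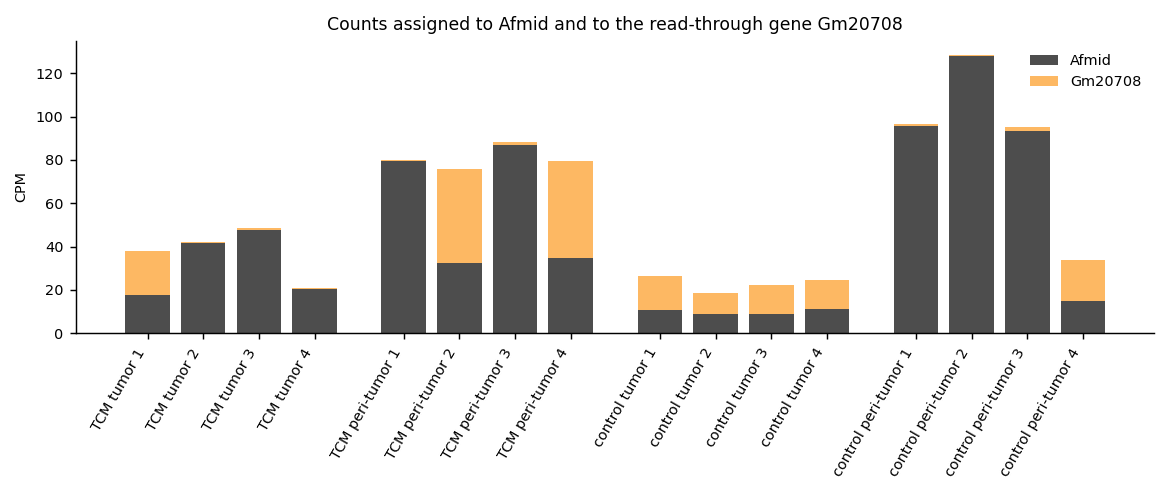
CPM assigned to Afmid (dark) and to the read-through gene Gm20708 (light) in each of the 16 libraries, stacked. The Gm20708 part is at most 2.93% of the bar in 8 libraries and at least 51.1% in the other 8, which include all 4 control tumors.

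Kmo and Kynu, the hydroxylase and the hydrolase that follow, fell in the tumors of both treatments. Kynu (chr2:43555329-43682715, plus strand) had 91.3, 80.65, 79.05 and 64.7 CPM in TCM tumors and 188, 169, 199 and 155 CPM in TCM peri-tumor tissue. It had 49.6, 46.4, 44.7 and 58.3 CPM in control tumors and 119, 102.3, 96.1 and 131 CPM in control peri-tumor tissue. Every tumor lay below every peri-tumor library of its treatment, and every TCM library lay above every control library of the same tissue. In tumors it fell by 1.17 ± 0.13 on the log2 scale in TCM mice (adjusted p = 1.14e-05) and likewise fell by 1.17 ± 0.13 in control mice (adjusted p = 5.38e-06). The difference between these values was -0.0007 ± 0.20 (adjusted p = 0.999). The rise with TCM was 0.67 ± 0.13 in tumors (adjusted p = 0.0103) and 0.67 ± 0.13 in peri-tumor tissue (adjusted p = 0.00517), 1.59-fold in both tissues. These 4 calls of Kynu were made under all settings tried.

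Kmo (chr1:175620381-175662116, plus strand), a flavin enzyme of the outer mitochondrial membrane, had 213, 174, 217 and 224 CPM in TCM tumors and 320.4, 249.5, 434.5 and 326 CPM in TCM peri-tumor tissue. In control mice it had 165, 144, 157 and 114 CPM in tumors and 224, 222, 230.5 and 288 CPM in peri-tumor tissue. Tumor and peri-tumor libraries did not overlap in either treatment, and in tumors Kmo fell by 0.68 ± 0.16 in TCM mice (adjusted p = 0.00415) and fell by 0.74 ± 0.16 in control mice (adjusted p = 0.00177). TCM tumors lay above all control tumors, by 0.51 ± 0.16, and this missed the threshold (adjusted p = 0.0653). In peri-tumor tissue the difference was 0.46 ± 0.16 (adjusted p = 0.0666), with control mouse 4 above TCM mouse 2. Leaving out control peri-tumor 4 gave 0.56 (adjusted p = 0.0285), leaving out TCM peri-tumor 2 gave 0.58 (adjusted p = 0.0323), and leaving out TCM tumor 2 gave 0.62 in tumors (adjusted p = 0.041), against ranges over settings of 0.018 to 0.221 and 0.0224 to 0.145. DESeq2 and limma-voom called both tissues. The gene Fh1 overlaps Kmo on the opposite strand, with 1392 to 3020 counts per library. The kit marks strand, and how the counting treated strand is unknown here.

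Haao (chr17:83831156-83847963, minus strand), which makes the last intermediate before the fork, fell in the tumors of both treatments, and less so in TCM mice. It had 253, 183, 236 and 178 CPM in TCM tumors, against 417, 411, 345 and 422 CPM in TCM peri-tumor tissue. In control mice it had 112.5, 86.0, 96.8 and 104 CPM in tumors, against 434, 502, 401 and 367 CPM in peri-tumor tissue. The 4 groups fall into 3 levels: peri-tumor libraries of both treatments are mixed at the top, TCM tumors lie in between, and control tumors lie lowest, with no overlap between the levels. Tumors had 1.88-fold less Haao than peri-tumor tissue in TCM mice (log2 -0.91 ± 0.14, adjusted p = 1.55e-04) and 4.27-fold less in control mice (log2 -2.09 ± 0.14, adjusted p = 6.04e-08). The difference of these log2 values was 1.19 ± 0.20 (adjusted p = 0.00807). It was called under all settings tried, with values of 1.12 to 1.31 and adjusted p of 1.51e-06 to 0.0435. It lay in the tumors: TCM tumors had 2.13-fold more Haao than control tumors (log2 1.09 ± 0.14, adjusted p = 9.67e-04), whereas the peri-tumor difference was -0.10 ± 0.14 (adjusted p = 0.692). Between TCM and control tumors 7.28% of all genes were called. None of the 5 Kupffer cell markers and none of the 7 hepatocyte markers was. Of 6 macrophage markers 2 were lower in TCM tumors, as was 1 of 3 neutrophil markers tested. Without control mouse 4, 1 of 7 hepatocyte markers was higher in TCM tumors and none lower (8.54% of all genes higher). For the difference of the tumor effect 1 of 7 was then higher too (3.28% of all genes). The part of these cells in the Haao values was not tested.

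The promoter of Haao is shown because Haao was the 1 member with a called difference of the tumor effect, and that of Nampt because it was the 1 member that fell with TCM and is a known clock target. Both are from RefSeq (GRCm38.p6), base 250 to base 31 before the start, 5′ to 3′ on the gene's strand, at chr17:83846821-83847040 (minus strand) and chr12:32820085-32820304 (plus strand). Capitals mark matches to 4 words searched on both strands: the E-box CACGTG, the HNF4 word CAAAGTCCA, the glucocorticoid receptor word AGAACA and the C/EBP word TTGCGCAAT.
Haao: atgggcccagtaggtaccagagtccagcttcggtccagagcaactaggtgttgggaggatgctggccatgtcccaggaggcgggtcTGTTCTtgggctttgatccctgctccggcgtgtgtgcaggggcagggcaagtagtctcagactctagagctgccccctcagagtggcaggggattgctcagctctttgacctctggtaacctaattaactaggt
Nampt: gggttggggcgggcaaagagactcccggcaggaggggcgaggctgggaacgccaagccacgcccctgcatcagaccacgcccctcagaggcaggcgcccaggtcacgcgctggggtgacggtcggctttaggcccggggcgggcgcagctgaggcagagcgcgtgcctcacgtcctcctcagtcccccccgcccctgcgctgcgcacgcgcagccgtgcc
Haao holds a reversed glucocorticoid receptor word (TGTTCT) 164 bases before its start. That word occurs, on either strand, in 14.4% of all 32851 windows of this length in the table. The other 3 words occur in 5.01% (E-box), 0.329% (HNF4) and 0.0457% (C/EBP). None of the 4 is in the Nampt window, nor in those of the other 7 members with an entry, and Kynu had none. The starts used are those of RefSeq. For Haao and Nampt, and also for Tdo2 and Kmo, the windows lie inside the GENCODE gene spans given in this text. The bases before the GENCODE starts of these genes were not searched. The windows differ in base composition, with 57.7% G and C and 4 CG pairs for Haao and 74.5% and 23 CG pairs for Nampt, against medians of 51.8% and 5 over all windows.

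Acmsd and Qprt, on the 2 arms of the fork, did not move alike. Acmsd (chr1:127729413-127767978, plus strand), which diverts the semialdehyde from NAD synthesis, had 22.2, 22.3, 33.0 and 27.2 CPM in TCM tumors and 22.7, 14.4, 19.8 and 15.03 CPM in TCM peri-tumor tissue. It had 13.6, 14.5, 11.3 and 14.7 CPM in control tumors and 13.6, 10.5, 17.7 and 23.0 CPM in control peri-tumor tissue. All TCM tumors lay above all control tumors, a rise of 1.935-fold (log2 0.95 ± 0.22, adjusted p = 0.0182). The call was lost without TCM tumor 3 (0.82, adjusted p = 0.0633; range over settings 0.00112 to 0.0633). In peri-tumor tissue the treatments overlapped (0.15 ± 0.22, adjusted p = 0.689), and tumors were not called against peri-tumor tissue in TCM mice (0.54 ± 0.22, adjusted p = 0.0655) or in control mice (-0.26 ± 0.22, adjusted p = 0.36). Without TCM peri-tumor 1 the value in TCM mice was 0.67 and was called (adjusted p = 0.0409; range over settings 0.0246 to 0.192), as it was without control mouse 4, under limma-voom and in a fit of the 8 TCM libraries alone.

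Qprt (chr7:127107114-127122226, minus strand), the transferase that commits quinolinate to NAD, had 161, 153, 194 and 183 CPM in TCM tumors and 184, 191, 182 and 218.5 CPM in TCM peri-tumor tissue. In control mice it had 139, 126, 122.5 and 137 CPM in tumors and 159, 147.5, 173 and 233 CPM in peri-tumor tissue. Between tumor and peri-tumor tissue it was not called in TCM mice (-0.17 ± 0.13, adjusted p = 0.367), and in control mice it fell by 0.44 ± 0.13 (adjusted p = 0.0135). TCM tumors lay above all control tumors, by 0.40 ± 0.13, which was not called (adjusted p = 0.0784). It was called without control mouse 4 (0.46 ± 0.11, adjusted p = 0.0158), under DESeq2 and under limma-voom (range over settings 0.0158 to 0.202). Within each library, Acmsd was far below Qprt in FPKM: the log2 ratio of Acmsd to Qprt was -2.65 ± 0.129 in TCM tumors, -3.36 ± 0.406 in TCM peri-tumor tissue, -3.20 ± 0.136 in control tumors and -3.41 ± 0.235 in control peri-tumor tissue (SD, n = 4 each). TCM tumors, at -2.77 to -2.47, lay above all control tumors, at -3.35 to -3.04, and above all peri-tumor libraries of both treatments, which reached -2.93 at most. This ratio is a description and was not tested.

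Nmnat1 (chr4:149467572-149485202, minus strand), which joins the nicotinic acid or nicotinamide nucleotide to an adenylate in the nucleus, fell in tumors of both treatments, while its values in TCM and control mice overlapped in both tissues (0.05 ± 0.14 in tumors, adjusted p = 0.858, and 0.03 ± 0.14 in peri-tumor tissue, adjusted p = 0.925). It spanned 7.29 to 9.17 CPM in TCM tumors and 10.05 to 13.1 CPM in TCM peri-tumor tissue, and 7.23 to 9.45 CPM in control tumors and 9.68 to 13.9 CPM in control peri-tumor tissue. The groups of a treatment did not overlap, and in tumors Nmnat1 fell by 0.47 ± 0.14 in TCM mice (adjusted p = 0.0166) and fell by 0.50 ± 0.14 in control mice (adjusted p = 0.00919). In TCM mice the call was lost without TCM peri-tumor 1 (-0.41, adjusted p = 0.0563) or TCM tumor 1 (-0.40, adjusted p = 0.0617; range over settings 0.00783 to 0.0617). Nadsyn1 (chr7:143795584-143822849, minus strand), the last enzyme of the route from tryptophan, was called in none of the 5 comparisons. It averaged 21.9 ± 3.54 CPM in TCM tumors and 20.03 ± 3.00 CPM in TCM peri-tumor tissue, and 17.75 ± 0.444 CPM in control tumors and 17.3 ± 3.62 CPM in control peri-tumor tissue (SD, n = 4 each). Its TCM tumors lay above all control tumors by 0.30 ± 0.15, an amount the test did not call (adjusted p = 0.229).

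**Figure D4:**
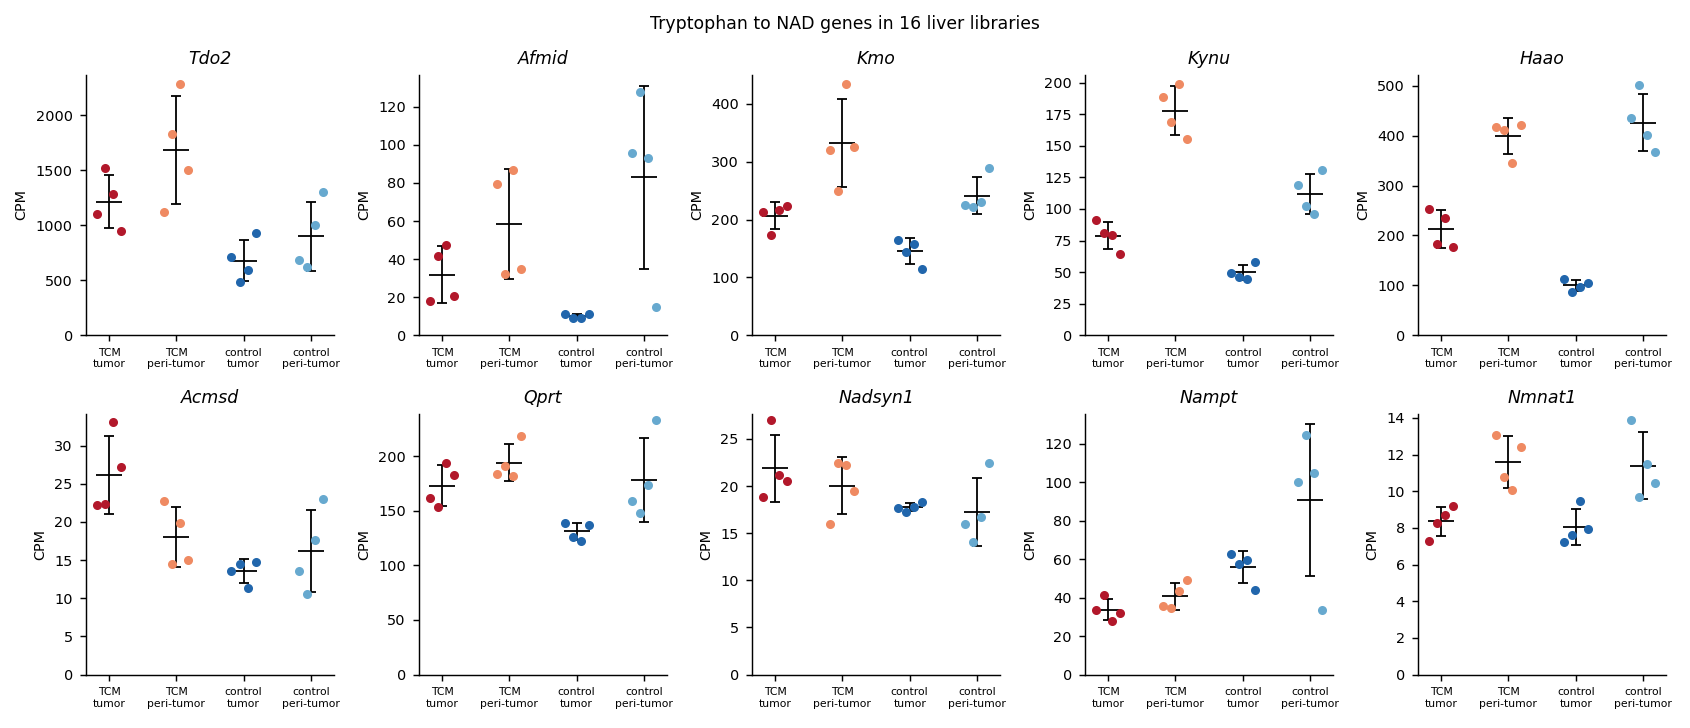
CPM of each of the 10 genes in the 4 libraries of TCM tumor, TCM peri-tumor, control tumor and control peri-tumor tissue, with the mean and 1 SD. Haao shows 3 levels, with means of 212 CPM in TCM tumors, 399 CPM in TCM peri-tumor tissue, 99.8 CPM in control tumors and 426 CPM in control peri-tumor tissue. Nampt is the 1 gene whose control libraries lie mostly above the TCM libraries in both tissues, and those of Afmid do so in peri-tumor tissue only.

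Nampt (chr12:32819545-32853349, plus strand), the rate-limiting enzyme of NAD salvage and a known target of the circadian clock, was the 1 member that fell with TCM. It had 33.4, 41.3, 28.1 and 31.96 CPM in TCM tumors, against 62.95, 57.3, 59.65 and 44.0 CPM in control tumors. In peri-tumor tissue it had 35.7, 34.4, 43.2 and 49.4 CPM in TCM mice, against 100.4 to 125 CPM in control mice 1 to 3 and 33.55 CPM in control mouse 4. The peri-tumor library of control mouse 4 lay below all 4 TCM libraries, while the other 3 control libraries were more than 2-fold above every one of them. The fall in peri-tumor tissue was 2.23-fold (log2 -1.16 ± 0.28, adjusted p = 0.015), and -1.44 without control mouse 4 (adjusted p = 3.97e-05). It was not called without control peri-tumor 2 (-0.97, adjusted p = 0.0524) or in a fit of the 8 peri-tumor libraries alone (-1.17, adjusted p = 0.053, the highest over the settings). In tumors the groups did not overlap, and the difference of -0.73 ± 0.28 was not called (adjusted p = 0.122). It was called without control mouse 4 (-0.80 ± 0.14, adjusted p = 0.00425), under limma-voom and in a fit of the tumor libraries alone, with a range over settings of 0.00425 to 0.256. Tumors of control mice were likewise called against peri-tumor tissue only without control peri-tumor 4 (-0.98, adjusted p = 1.73e-04), without that mouse (-0.91, adjusted p = 3.42e-04), under DESeq2 and limma-voom and with a filter of 1 CPM in 4 libraries, against -0.70 ± 0.28 with all libraries (adjusted p = 0.0541; range over settings 1.73e-04 to 0.153). TCM mice gave -0.27 ± 0.28 for that comparison (adjusted p = 0.496). The Kupffer cell and macrophage sums were also lower in TCM than in control peri-tumor tissue, and their part in the Nampt values was not tested.

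Clock genes also differed between TCM and control mice. Per2, a clock repressor, had 4.10, 14.4, 13.98 and 17.1 CPM in TCM peri-tumor tissue, against 53.4, 71.7, 58.65 and 24.55 CPM in control peri-tumor tissue, and with TCM it fell by 2.07 ± 0.45 on the log2 scale (adjusted p = 0.00824). In tumors Per2 had 4.98, 15.5, 13.5 and 16.5 CPM in TCM mice, against 42.4, 49.7, 41.4 and 18.75 CPM in control mice (log2 -1.59 ± 0.44, adjusted p = 0.0405). Control mouse 4 was thus the lowest control for Per2 in both tissues, as it was for Nampt. Clock, a clock activator, rose with TCM in peri-tumor tissue (1.19 ± 0.30, adjusted p = 0.0175). Nr1d1, a repressor whose RNA cycles strongly in liver and which was singled out after its values were seen, had 121 to 197 CPM in TCM peri-tumor tissue, against 40.7, 26.7, 36.7 and 151 CPM in control mice, control mouse 4 lying among the TCM mice. The time of day at which tissue was taken is not in the labels used here, so a difference in sampling time and an effect of the decoction on these genes cannot be told apart.

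**Figure D5:**
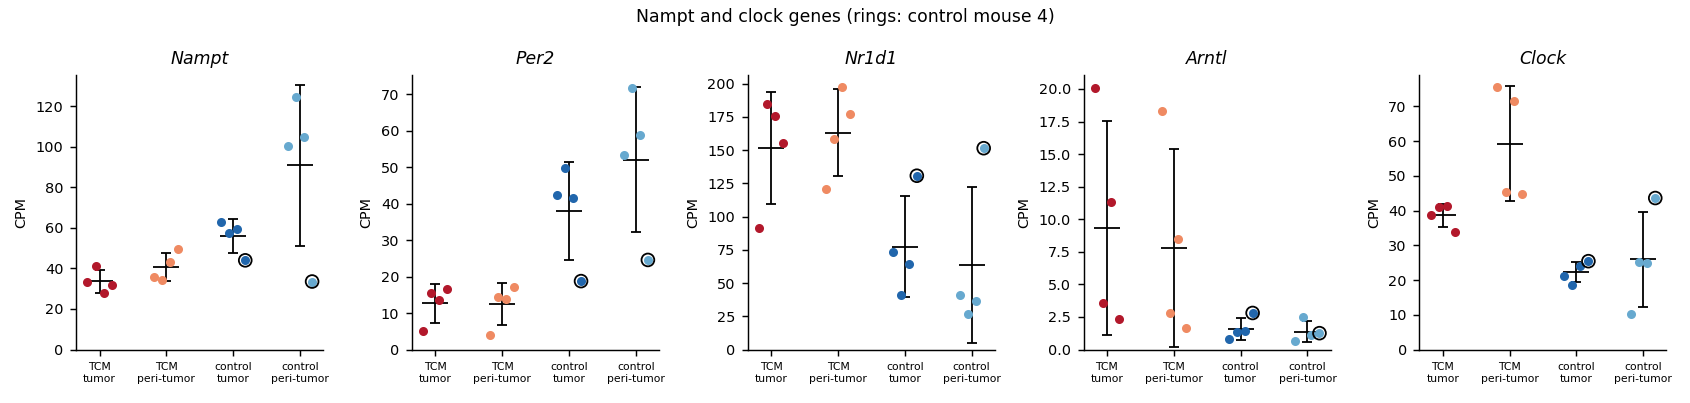
CPM of Nampt and of the clock genes Per2, Nr1d1, Arntl and Clock in the 4 libraries of each group, with the mean and 1 SD, and rings around control mouse 4. In peri-tumor tissue control mouse 4 has 33.55 CPM of Nampt, against 100.4 to 125 CPM in the other 3 control mice, and 151 CPM of Nr1d1, against 26.7 to 40.7 CPM.

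Enzymes of the kynurenine side branches fell in tumors as well. Of 7 such genes, 5 fell in tumors and none rose, in TCM and in control mice alike, where 15.6% and 21.2% of all genes were lower (medians of the 7, -0.90 and -1.37). Among them were Aldh8a1, a dehydrogenase that acts after Acmsd on the way to glutaryl-CoA (-0.90 in TCM and -1.37 in control mice), and glutaryl-CoA dehydrogenase (Gcdh, -1.22 and -2.06). Also among them were Dhtkd1 of the oxoadipate complex (-1.59 and -2.54) and the kynurenine transaminase Aadat (-1.86 and -2.38). TCM tumors had more RNA than control tumors of 4 of the 7, where 4.55% of all genes were higher: Aldh8a1 (0.73 ± 0.09, adjusted p = 9.67e-04), Got2 (0.49 ± 0.09, adjusted p = 0.00737), Dhtkd1 (1.16 ± 0.24, adjusted p = 0.0117) and Gcdh (0.73 ± 0.19, adjusted p = 0.0316). In peri-tumor tissue Got2 was the 1 gene of the 7 that rose (0.37 ± 0.09, adjusted p = 0.0151), where 6.71% of all genes were higher. None of the 7 was called for the difference of the tumor effect. Without control mouse 4 the counts of rises with TCM were 5 of 7 in tumors (8.54% of all genes) and 3 of 7 in peri-tumor tissue (11.3% of all genes), and 1 of 7 was called for that difference (3.28% of all genes higher), Dhtkd1 (1.27, adjusted p = 0.043). At the entry, Ido1 had at most 0.365 CPM in any library, and its relative Ido2 and the aromatic amino acid transporter Slc16a10 fell in tumors of both treatments (log2 -0.77 and -1.19 for Ido2 and -1.38 and -2.58 for Slc16a10, in TCM and control mice). With TCM, Ido2 (-0.48 ± 0.14, adjusted p = 0.0391) and Slc7a8 (-1.07 ± 0.32, adjusted p = 0.0358) fell in peri-tumor tissue, where 7.35% of all genes were lower. Slc3a2 fell with TCM in tumors (-0.67 ± 0.17, adjusted p = 0.0253), where 2.72% were lower. None of the 5 genes tested on this list rose with TCM in either tissue with all libraries. Without control mouse 4, 1 of the 5 rose in tumors. In the serotonin branch, Tph1 and Tph2, which start it, had too few counts to test. Its decarboxylase Ddc had 16.7 ± 11.5 CPM in TCM tumors and 54.8 ± 23.5 CPM in TCM peri-tumor tissue, and 4.78 ± 2.35 CPM in control tumors and 21.8 ± 5.61 CPM in control peri-tumor tissue. It rose with TCM in both tissues (1.80 ± 0.43, adjusted p = 0.0217 in tumors, and 1.33 ± 0.40, adjusted p = 0.0377 in peri-tumor tissue).

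Genes that use, move or clear NAD and nicotinamide changed in both directions. Of 17 tested NAD-consuming enzymes, 1 rose and 5 fell in tumors of TCM mice, and 2 rose and 7 fell in those of control mice (medians -0.11 and -0.31). Over all genes 17.3% were higher and 15.6% lower in tumors of TCM mice, and 22% higher and 21.2% lower in those of control mice. The falls were thus a larger share of these enzymes than of all genes, and the rises a smaller one. This lean was not tested. The mitochondrial deacylase Sirt3 fell by the most among those named, to 29.1 ± 5.12 CPM in TCM tumors, against 69.2 ± 5.38 CPM in TCM peri-tumor tissue, and to 16.8 ± 1.88 CPM in control tumors, against 66.6 ± 8.37 CPM in control peri-tumor tissue. Like Haao, Sirt3 was higher in TCM than in control tumors (0.79 ± 0.13, adjusted p = 0.00454). Of 9 tested genes of other NAD synthesis and transport, 2 rose and 2 fell in tumors of TCM mice, and 2 rose and 3 fell in those of control mice, against the same shares of all genes. Slc25a51, the mitochondrial NAD carrier, fell by 0.90 ± 0.14 in TCM mice and fell by 1.46 ± 0.14 in control mice. Naprt, which uses nicotinic acid, had log2 fold changes of -0.53 and -0.98, and the ectonucleotidase Nt5e rose by 1.87 and 2.62, all called. None of the 9 was called between TCM and control tumors, where 7.28% of all genes were. In peri-tumor tissue Nmrk1, the nicotinamide riboside kinase, fell with TCM (-1.64 ± 0.35, adjusted p = 0.00738). Nnmt, which methylates nicotinamide for excretion, had 2.41 ± 1.99 CPM in TCM tumors and 40.0 ± 9.58 CPM in TCM peri-tumor tissue, and 4.49 ± 4.21 CPM in control tumors and 159 ± 32.8 CPM in control peri-tumor tissue. In tumors it fell by 4.02 ± 0.56 in TCM mice and fell by 5.14 ± 0.56 in control mice, and TCM peri-tumor tissue had less than control peri-tumor tissue (-1.995 ± 0.48, adjusted p = 0.0137). Control tumor 4, with 10.7 CPM, was the highest tumor, and without control mouse 4 the fall in control mice was -6.18.

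Receptors that bind products of the pathway or the hormones that act on it showed changes in both directions. Of 7 tested genes listed with the aryl hydrocarbon receptor, for which kynurenine is a ligand, 1 rose and 2 fell in TCM tumors. In control tumors 2 rose and 2 fell, where 32.9% of all genes were called in TCM mice and 43.2% in control mice. The gene that rose in TCM mice was Gpr35, a separate G protein-coupled receptor on the same list. Those that rose in control mice were Gpr35 and Tiparp. The receptor Ahr fell in tumors, with log2 fold changes of -0.85 in TCM and -0.89 in control mice, and so did its target Cyp1a2, a gene of mature hepatocytes (-2.68 and -3.87). Its target Tiparp was lower in TCM than in control tumors (-0.71 ± 0.18, adjusted p = 0.0294). Of 7 glucocorticoid receptor genes, 1 was called between TCM and control mice in each tissue, the target Fkbp5, which fell (7.28% of all genes were called in tumors and 14.1% in peri-tumor tissue). Fkbp5 had 36.2, 57.9, 61.8 and 44.2 CPM in TCM tumors, against 111, 129, 98.5 and 70.6 CPM in control tumors (-1.03 ± 0.27, adjusted p = 0.0311). In peri-tumor tissue it had 15.5, 25.6, 21.1 and 27.9 CPM in TCM mice, against 134, 152, 128.5 and 61.5 CPM in control mice (-2.40 ± 0.28, adjusted p = 1.89e-04). Tdo2, another glucocorticoid target, differed in the opposite direction to Fkbp5, by the values given above. Fkbp5 does not stand for the whole list. The median log2 fold change of the 7 genes with TCM was 0.10 in tumors and -0.23 in peri-tumor tissue. Without control mouse 4, 2 of the 7 were higher and 1 was lower in TCM tumors (8.54% and 3.95% of all genes). The peri-tumor counts did not change. Among liver transcription factors, Cebpb fell with TCM in peri-tumor tissue (-0.93 ± 0.20), and Cebpa fell in tumors of both treatments (-0.54 in TCM and -1.02 in control mice).

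Profiles were compared over the 16 libraries by the root mean square difference of log2 CPM, each gene centred on its own mean. The closest to each member were sought among genes of at least 5 CPM on average, with the members themselves left out. For Haao they were Magix (0.17), Hebp1 (0.18) and Pemt (0.19), where Haao itself varied by 0.86 around its mean. For Kynu they were Pcca (0.16), Glo1 (0.17) and Slc25a15 (0.17), with 0.69 for Kynu itself. Tdo2 was nearest to Hykk (0.20), Necab1 (0.25) and Elp4 (0.26), with 0.61 for Tdo2 itself, and Nampt to Marveld1 (0.21), Pld4 (0.28) and Bnip3 (0.30), with 0.64 for Nampt itself. Members were compared with each other apart from that search. The nearest member to Haao was Kynu (0.41), to Kynu it was Kmo (0.36) and to Tdo2 it was Qprt (0.46). To Nampt it was Nmnat1 (0.63), close to the spread of Nampt itself. The points share libraries, tissue and treatment, and no test was made.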

How the data were processed

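Polyadenylated RNA of 16 liver samples was isolated (mirVana) and made into stranded libraries (VAHTS kit), according to the protocols in the labels. The deposited table holds whole-number counts per gene, unscaled, per the file headers and the values. The deposited FPKM files hold counts per gene length and library total; they were checked against the counts over 11980 genes (highest deviation 0.00924%) and used only for levels between genes. Builds mm9 and mm10 both appear in the submitters' processing notes; the aligner and counter were not given in the sources used here. Of 54838 genes, 115 have no symbol and 27552 had 0 counts everywhere. No library was left out, and none was a copy of another (chi-square per degree of freedom at least 15.62 within a group).

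Counts were tested with edgeR 4.0.16 in R 4.3.3: TMM factors, filterByExpr (count minimum 10), 1 fit of 16 libraries with a mean per group (12 residual degrees of freedom) and the quasi-likelihood test on 14865 genes, with Benjamini-Hochberg adjustment over all of them and adjusted p under 0.05 called. Errors beside log2 values are SE, worked out as the size of the log2 value over the square root of its F statistic. Errors beside CPM or FPKM values are SD of 4 libraries. The labels carry an animal code, which pairs tumor with peri-tumor tissue, and same-mouse deviations correlated at 0.0433 to 0.235. The members and gene lists were chosen with earlier results of these data known. The text names all members, up to 4 called genes of at least 1 CPM per list and comparison with the lowest p, and the 3 nearest profiles of a member. Tried besides were DESeq2 1.42.0, limma-voom with sample weights (limma 3.58.1), RLE factors, other filters, only the groups compared, mouse or replicate number as a block, each library left out, control mouse 4 left out, and Gm20708 counts added to Afmid. The fitting script was first run on simulated counts with known fold changes. Promoter windows are from RefSeq (GRCm38.p6), with 9 of 10 members matched. Some results of the gene lists and motif search are not reported here.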

Additional observations from a re-analysis of the deposited data

Results flagged for a closer look

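Of the 40 groups of 4 libraries formed by the 10 members, 2 held a library far from the other 3, where chance flags about 1 in 20: the highest Kmo value of control peri-tumor tissue, 288.3 CPM in control mouse 4, and the lowest Haao value of TCM peri-tumor tissue, 345.1 CPM in TCM mouse 3.

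The effect of tumor against peri-tumor tissue differed between TCM and control mice, by the edgeR test of the difference itself, for Haao among the members, with 1.1851 on the log2 scale (adjusted p = 0.00807; tumors below peri-tumor tissue in 4 of 4 TCM and 4 of 4 control mice). Among the listed genes it differed for Aox1, an aldehyde oxidase that acts on nicotinamide derivatives, with -1.7411 (adjusted p = 0.00867): Aox1 fell in tumors of TCM mice (38.9 ± 10.4 CPM, against 74.1 ± 5.77 CPM in peri-tumor tissue) and rose in those of control mice (39.2 ± 8.51 CPM, against 22.3 ± 5.79 CPM). It also differed for the poly-ADP-ribosylating enzyme Tnks2, with -0.6841 (adjusted p = 0.0456), and for the NADH pyrophosphatase Nudt12, with -0.5575 (adjusted p = 0.0478). Without control mouse 4 these differences were -1.67 for Aox1 (adjusted p = 0.0126), -0.73 for Tnks2 (adjusted p = 0.0162) and -0.51 for Nudt12 (adjusted p = 0.0518, not called).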

How the results depend on the processing

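Over the 10 members, 5 comparisons and all settings other than 1 library left out, 357 of 395 values kept their direction and their side of the threshold, 27 gained and 3 lost a call and 8 changed sign. With 1 library left out these were 435, 7, 10 and 28 of 480. No value that changed sign was called. Those were Nmnat1 between treatments in peri-tumor tissue without control mouse 4 (-0.0174) and, where the tumor effects of the treatments were compared, Tdo2 under limma-voom (0.02), Kmo and Nadsyn1 without control mouse 4 (-0.1011 and -0.0026) and Kynu under limma-voom, no filter, the 1 CPM filter and without control mouse 4 (0.0034, 0.0137, 0.022 and 0.0441). With 1 library left out the ranges were -0.0699 to 0.1889 for Nadsyn1 in control mice, and -0.0101 to 0.3668 for Acmsd and -0.0461 to 0.1354 for Nmnat1 between treatments in peri-tumor tissue. For the difference they were -0.2942 to 0.1422 for Tdo2, -0.0652 to 0.206 for Kmo, -0.0847 to 0.117 for Kynu, -0.0619 to 0.2076 for Nadsyn1 and -0.0843 to 0.1438 for Nmnat1.

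Genes called over the whole table, 2091 between treatments in peri-tumor tissue, became 3349 under limma-voom and 3434 without control mouse 4, and 1101 to 3228 with 1 library left out. The 1082 in tumors became 1805 under DESeq2, 2193 under limma-voom, 687 with no filter and 1877 without control mouse 4, and 404 to 1250 with 1 library left out. The 165 for the difference became 806 under DESeq2, 603 under limma-voom, 79 with no filter, 107 with the mouse as a replicate block and 714 without control mouse 4, and 58 to 665 with 1 library left out. The cause was not tested. Tumor against peri-tumor calls with 1 library left out were 4098 to 4559 in TCM mice (4897 with all) and 5759 to 6704 in control mice (6415). The block changed no call of a member. Between treatments a shared number marks no shared animal, and a block on it changed no member call either.

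Low counts limit Nmnat1 (110 to 218 per library), Acmsd (174 to 458) and Nadsyn1 (233 to 435), and with 4 mice a group a p over the threshold does not show equal levels.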
